A study of Homo sapiens with 6 samples.

Results

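The integrated stress response genes ATF4, DDIT3, TRIB3, CHAC1, ASNS, DDIT4, CEBPB, VLDLR and PPP1R15A, were followed in MCF10DCIS.com cells after silencing of WDR5. They were picked by gene symbol, and all 9 were among the 26334 genes of the count table. MCF10DCIS.com is a human breast cancer cell line of basal character. All cells carried a pRSI vector with a U6-driven hairpin, TagRFP and a puromycin resistance gene, and all were selected with puromycin. The control hairpin targeted luciferase (shLuc, 3 libraries), and the other targeted WDR5 (shWDR5, 3 libraries). WDR5 is the WD40-repeat subunit of complexes that methylate lysine 4 of histone H3. The labels do not say which WDR5 hairpin or hairpins these libraries carried, and each group was a drug-selected population of infected cells. No label says whether the replicates were separate infections, so the p-values measure only the spread between these libraries, which may be technical.

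The integrated stress response starts when any of a small family of kinases phosphorylates the translation factor eIF2. Bulk protein synthesis then falls, while the mRNA of ATF4 is translated more efficiently through its upstream reading frames. ATF4 is a bZIP transcription factor that, often as a dimer with a C/EBP factor, binds composite C/EBP-ATF elements at genes for amino acid supply, redox balance and survival. DDIT3 (CHOP) and TRIB3 act downstream of it, and PPP1R15A (GADD34) directs a phosphatase to eIF2 and closes the loop. The libraries measured poly-A RNA only, so neither the phosphorylation of eIF2 nor the amount of ATF4 protein was measured.

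The response element recognised by ATF4 with C/EBP partners has the core TGATGNAA, where N is any base. This core was searched on both strands in the 250 bases before each RefSeq transcript start (GRCh38.p14), and the 9 genes had 15 such windows, at least 1 each. It was found in 3.14% of the 35116 windows of all genes. It was found in 2 of the 15 windows of the 9 genes, 1 of CHAC1 and 1 of ASNS, which changed in opposite directions in the counts described further on. Windows of the same gene can overlap, as those of ATF4, DDIT3, TRIB3, ASNS and CEBPB did, so the 15 windows are not 15 separate promoters. Elements outside the 250 bases were not searched, so a window without a match does not show that a gene lacks the element. The palindrome TGACGTCA, which binds CREB and ATF family dimers, was found in 1.65% of all windows and, among the 9 genes, in that of PPP1R15A. The 3 windows that held either motif are shown beside the genes whose levels are compared, with the matched letters in capitals.
CHAC1, chr15:40953221-40953470, plus strand, core on the opposite strand: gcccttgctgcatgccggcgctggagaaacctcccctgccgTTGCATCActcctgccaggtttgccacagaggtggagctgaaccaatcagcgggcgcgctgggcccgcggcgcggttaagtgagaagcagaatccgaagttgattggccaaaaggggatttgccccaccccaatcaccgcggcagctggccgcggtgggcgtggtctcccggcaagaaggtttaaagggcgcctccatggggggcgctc
ASNS, chr7:97872409-97872658, minus strand, core on the gene's strand: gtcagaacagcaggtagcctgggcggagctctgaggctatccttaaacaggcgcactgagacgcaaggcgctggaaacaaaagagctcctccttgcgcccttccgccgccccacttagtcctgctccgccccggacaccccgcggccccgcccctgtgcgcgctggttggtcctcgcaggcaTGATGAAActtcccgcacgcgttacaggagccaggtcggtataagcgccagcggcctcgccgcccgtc
PPP1R15A, chr19:48872171-48872420, plus strand, palindrome: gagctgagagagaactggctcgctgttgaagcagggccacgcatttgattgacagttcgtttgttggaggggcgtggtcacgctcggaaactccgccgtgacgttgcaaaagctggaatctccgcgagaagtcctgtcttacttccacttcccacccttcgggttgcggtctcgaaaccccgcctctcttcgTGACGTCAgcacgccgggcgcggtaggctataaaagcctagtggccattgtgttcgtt
The core began 68 bases before the ASNS start, and in CHAC1 the matched letters began 209 bases before the start. The palindrome began 58 bases before the PPP1R15A start. A match is a description of these letters, not evidence of binding.

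Depth was similar in all libraries, from 38218108 to 57640167 counted reads. WDR5 itself was read at 16.5, 15.2 and 16.1 RPKM (read counts scaled by exon length and by the size of the library) in shLuc and at 7.34, 7.65 and 6.52 RPKM in shWDR5, a 2.22-fold fall (edgeR, adjusted p = 1.86e-07). All 7 markers listed for basal epithelium were detected, with a summed level of 2022 to 2151 RPKM in shLuc and 3458 to 3953 RPKM in shWDR5. Of these, KRT5, KRT14, KRT17, KRT6A and TP63 rose while CDH1 and EPCAM, which are epithelial but not particular to basal cells, fell. The 5 luminal markers summed to 1736 to 1883 RPKM in shLuc and 1678 to 1841 RPKM in shWDR5, with PGR below 0.05 RPKM in every library. Nearly all of this sum was KRT8 and KRT18, which were not called, while GATA3 fell from a mean of 11.4 to 8.67 RPKM. The 5 stromal markers summed to at least 3.65 RPKM in each shLuc library and at most 3.01 RPKM in each shWDR5 library, nearly all of it COL1A1. COL1A2, COL3A1 and LUM stayed below 0.05 RPKM in every library. The 5 immune and endothelial markers summed to 7.14 to 8.49 and 6.42 to 7.52 RPKM, with PTPRC, CD3E and VWF below 0.05 RPKM. Most of this sum was CD68, which was not called, while PECAM1 fell from a mean of 1.46 to 0.89 RPKM. The part of these marker shifts in the results was not tested. In bulk RNA, fewer cells expressing a gene and less RNA per cell cannot be told apart.

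WDR5 silencing did not move the 9 genes together. CHAC1, VLDLR and PPP1R15A rose, TRIB3, ATF4 and ASNS fell, and DDIT3, CEBPB and DDIT4 did not pass the test (adjusted p under 0.05 over all 16117 genes tested). Thus 6 of 9 genes were called, against 56.5% of all genes tested, of which 26.6% were higher and 29.9% lower in shWDR5. The share among the 9 genes was near that background and is not a result about them as a group. Under the thresholds the study used, which add an absolute log2 fold change of at least 0.6 and a level above 0.5 RPKM, only CHAC1 and VLDLR of the 9 genes remained, against 18.3% of all genes tested (7.90% higher and 10.4% lower). The median log2 fold change was 0.15 over the 9 genes and -0.01 over all genes. RPKM values of the 2 groups did not overlap for 7 of the 9 genes, against 62.3% of all genes tested.

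**Figure D1:**
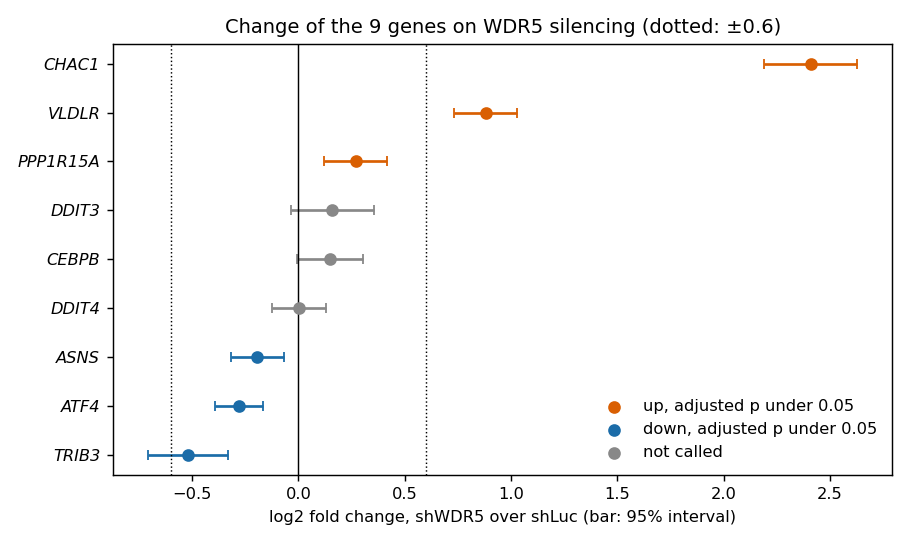
Log2 fold change of each of the 9 genes, shWDR5 over shLuc, on the horizontal axis, with bars for the 95% interval and dotted lines at ±0.6. CHAC1 at 2.41 and VLDLR at 0.88 lie beyond the upper dotted line, and the fitted values of the other 7 genes lie between the dotted lines.

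ATF4, the transcription factor at the centre of the response (hg19 chr22:39916564-39918691, plus strand), was abundant and slightly lower after silencing. It was read at 263, 257 and 254 RPKM in the shLuc libraries and at 221, 210 and 207 RPKM in the shWDR5 libraries. Every shWDR5 library lay below every shLuc library, and the spread within a group was small, with a coefficient of variation of 1.74% and 3.30%. The mean fell from 258 ± 4.50 to 213 ± 7.03 RPKM (SD, n = 3 in each group), a log2 fold change of -0.28 ± 0.05 (SE; edgeR, adjusted p = 0.000617). In shLuc its level stood at the 98.8th percentile of the genes tested.

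DDIT3 (CHOP) and CEBPB encode bZIP factors that pair with ATF4 or with each other, and neither passed the test. DDIT3 (chr12:57910371-57914300, minus strand) was read at 6.61, 6.50 and 6.08 RPKM in shLuc and at 7.73, 7.20 and 6.52 RPKM in shWDR5. The groups overlapped, since the lowest shWDR5 library was below the highest shLuc library. Its log2 fold change was 0.16 with a 95% interval from -0.04 to 0.35 (edgeR, adjusted p = 0.151). It was 0.10 without shWDR5 replicate 1 and 0.22 without shWDR5 replicate 3, and neither passed the test. DDIT3 shares 68 exon bases with MARS on the other strand, a methionyl-tRNA synthetase gene that fell by 0.32 on the log2 scale. No source used here says that the counting used strand, so reads of this stretch cannot be assigned to one gene or the other. CEBPB (chr20:48807120-48809227, plus strand), a C/EBP factor induced in inflammation and differentiation, was read at 23.9, 20.2 and 23.6 RPKM in shLuc and at 25.1, 25.6 and 24.3 RPKM in shWDR5. The groups did not overlap, but shLuc replicate 2 stood well below the other shLuc libraries. The log2 fold change was 0.15 with an interval from -0.01 to 0.31 (edgeR, adjusted p = 0.0963), while without shLuc replicate 2 it was 0.0660 (adjusted p = 0.431) and without shLuc replicate 1 it was 0.21 (adjusted p = 0.0368). CEBPB shares 561 exon bases with the antisense gene CEBPB-AS1, which was assigned 38 to 54 reads per library. The limit on strand given for DDIT3 holds for this stretch too, so these counts do not show how many of its reads were antisense.

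TRIB3 and PPP1R15A, which both restrain the response, moved in opposite directions. TRIB3 (chr20:361273-378203, plus strand), a pseudokinase that binds ATF4 and AKT, was read at 65.7, 60.4 and 53.1 RPKM in shLuc and at 43.1, 44.2 and 37.8 RPKM in shWDR5. The groups were separate although the shLuc libraries spread widely, with a coefficient of variation of 10.7%. TRIB3 showed the deepest fall of the 9 genes, 1.43-fold, with a log2 fold change of -0.52 ± 0.09 (SE; edgeR, adjusted p = 0.000397). PPP1R15A (chr19:49375649-49379319, plus strand), the stress-inducible partner of protein phosphatase 1, was read at 21.0, 19.8 and 22.7 RPKM in shLuc and at 25.2, 26.9 and 24.5 RPKM in shWDR5. The shWDR5 libraries were all higher, by 1.20-fold in the fit, with a log2 fold change of 0.27 ± 0.07 (SE; edgeR, adjusted p = 0.0049). The constitutive counterpart of PPP1R15A, PPP1R15B, fell by 0.74 on the log2 scale, from 32.4 ± 2.67 to 19.4 ± 1.50 RPKM (SD, n = 3; edgeR, adjusted p = 6.68e-06).

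CHAC1 gave the largest change of the 9 genes. It encodes a gamma-glutamylcyclotransferase that degrades glutathione and is a well-known target of ATF4 and DDIT3. The gene (chr15:41245636-41248717, plus strand) was assigned 131, 94 and 112 reads in the shLuc libraries and 705, 742 and 613 reads in the shWDR5 libraries. In RPKM these were 1.70, 1.55 and 1.78 against 9.76, 8.37 and 8.67. The lowest shWDR5 library exceeded the highest shLuc library several times over. The fitted rise was 5.31-fold, a log2 fold change of 2.41 ± 0.10 (SE; 95% interval 2.19 to 2.63; edgeR, adjusted p = 1.26e-08). CHAC1 ranked 109 of 16117 genes by log2 fold change from the top. Its paralog CHAC2, which has the same enzymatic activity, fell from 7.12 ± 1.03 to 5.02 ± 0.87 RPKM (log2 fold change -0.50; edgeR, adjusted p = 0.0119; 0.0682 without shLuc replicate 3).

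VLDLR, the very low density lipoprotein receptor, was the other gene with a clear rise. At chr9:2621793-2654485 (plus strand) it was read at 6.08, 5.73 and 6.28 RPKM in shLuc and at 11.7, 10.6 and 11.0 RPKM in shWDR5. The groups stood far apart relative to their spread, which was under 5% of the mean in each group. The rise was 1.84-fold, a log2 fold change of 0.88 ± 0.07 (SE; edgeR, adjusted p = 7.49e-07). The antisense gene VLDLR-AS1 shares 172 exon bases with it and was assigned 1 to 8 reads per library, with the same limit on strand as for DDIT3. LRP8, a related lipoprotein receptor, fell by 0.44 on the log2 scale (edgeR, adjusted p = 9.65e-05).

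ASNS, the asparagine synthetase and a classical amino acid response gene (chr7:97481429-97501854, minus strand), was slightly lower. It was read at 21.8, 21.0 and 20.9 RPKM in shLuc and at 18.9, 18.0 and 18.8 RPKM in shWDR5, with no overlap. The log2 fold change was -0.19 ± 0.06 (SE; edgeR, adjusted p = 0.0122). This call was lost without shLuc replicate 1 (adjusted p = 0.0504) and without shWDR5 replicate 2 (adjusted p = 0.0641), while the direction held. DDIT4 (REDD1), a stress-induced inhibitor of mTORC1 (chr10:74033677-74035797, plus strand), was the most abundant of the 9 genes and took 0.17% to 0.194% of all counted reads of a library. It was read at 1085, 1024 and 970 RPKM in shLuc and at 1068, 985 and 1032 RPKM in shWDR5. The groups overlapped almost fully, and the 95% interval of the log2 fold change ran from -0.13 to 0.13 (edgeR, adjusted p = 0.973).

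**Figure D2:**
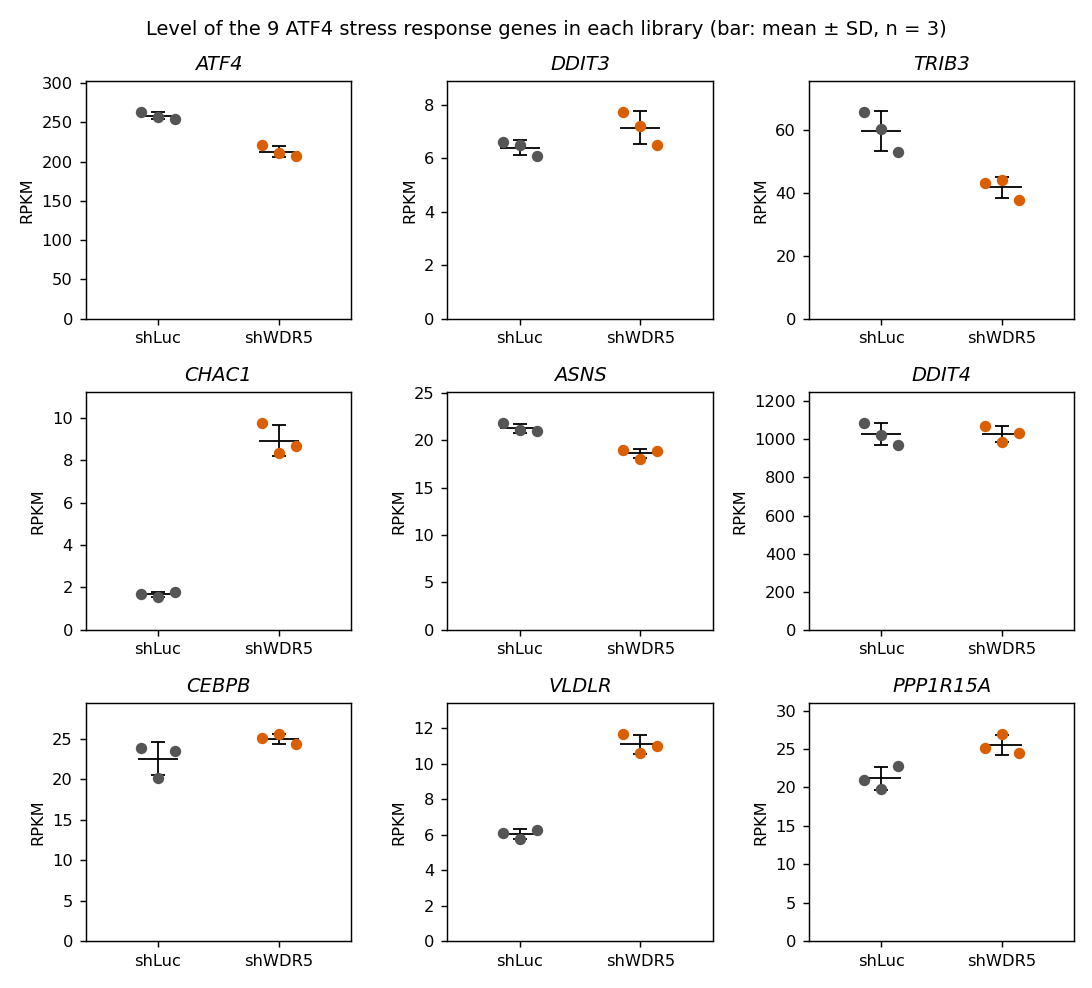
RPKM of each gene on its own linear axis from 0, with 1 point per library for shLuc (grey) and shWDR5 (orange), and bars for the mean ± SD of 3 libraries. Only DDIT3 and DDIT4 show overlapping groups, and CHAC1 rises from a mean of 1.68 to 8.93 RPKM.

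Compared per kilobase, the order of the levels in shLuc was DDIT4, ATF4, TRIB3, then CEBPB, ASNS and PPP1R15A, then DDIT3 and VLDLR, and last CHAC1. CEBPB, ASNS and PPP1R15A did not differ beyond their spread there, with ranges of 20.2 to 23.9, 20.9 to 21.8 and 19.8 to 22.7 RPKM. DDIT3 and VLDLR overlapped as well. In shWDR5 the lower part of the order was different. CHAC1 lay above DDIT3, with 8.37 to 9.76 against 6.52 to 7.73 RPKM, and VLDLR above both at 10.6 to 11.7 RPKM. ASNS lay below CEBPB and PPP1R15A, whose ranges still overlapped.

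**Figure D3:**
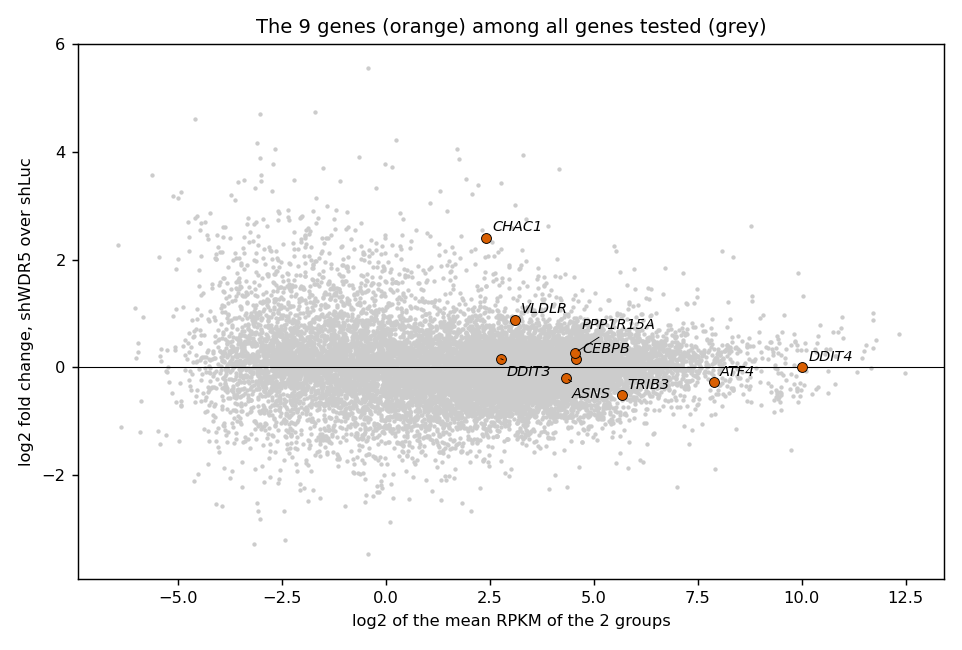
Log2 fold change (shWDR5 over shLuc) of each of the 16117 genes tested against the log2 of its mean RPKM, with the 9 genes in orange. CHAC1 ranks 109 of 16117 from the top, ATF4 and DDIT4 sit at the abundant end, and 7 of the 9 genes lie within 0.6 of zero.

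The genes upstream of ATF4 were mixed. Of the 4 kinases that phosphorylate eIF2, EIF2AK4 (GCN2), the sensor of uncharged tRNA, rose from 34.3 ± 0.27 to 53.5 ± 0.75 RPKM, a log2 fold change of 0.64 ± 0.05 (SE; edgeR, adjusted p = 7.22e-07). EIF2AK2 (PKR), the sensor of double-stranded RNA, fell by 0.50 on the log2 scale (adjusted p = 0.000158). EIF2AK3 (PERK), of the endoplasmic reticulum, and EIF2AK1 (HRI), activated by haem shortage, were not called, with log2 fold changes of 0.14 and 0.04. Of 12 genes for eIF2, its exchange factor eIF2B and the eIF2 phosphatase, 1 rose and 5 fell, with a median log2 fold change of -0.14. Of all genes tested, 26.6% rose and 29.9% fell, and the 6 of 12 called here were near the 56.5% called overall. Beside PPP1R15B, these were EIF2B3 at -0.57, the phosphatase catalytic subunit PPP1CA at -0.43, the eIF2 alpha subunit EIF2S1 at -0.29 and EIF2B2 at -0.20, while EIF2B4 rose by 0.19. The EIF2B4 call was lost without shLuc replicate 2 (adjusted p = 0.0732), without shWDR5 replicate 1 (0.0605) and with library size scaling alone (0.0681).

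The bZIP partners of ATF4, listed together with NUPR1, which is not a bZIP factor, changed in both directions. Of the 8 genes tested in this list, NUPR1 among them, 4 rose and 2 fell, with a median of 0.09. Of all genes tested, 26.6% rose and 29.9% fell. ATF5, a close relative of ATF4, rose 2.06-fold from 6.80 ± 0.24 RPKM in shLuc (SD, n = 3; edgeR, adjusted p = 2.75e-07). NUPR1, a stress-induced chromatin protein, rose by 0.78 on the log2 scale and CEBPD by 0.43. CEBPA, a C/EBP factor of differentiation, fell 2.21-fold from 2.75 ± 0.15 to 1.24 ± 0.11 RPKM (edgeR, adjusted p = 1.99e-06), and CEBPG, a frequent dimer partner of ATF4, fell by 0.39. ATF3, a common stress marker, had mean levels of 1.31 and 1.29 RPKM and was not called, with a log2 fold change of -0.03.

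Known ATF4 targets outside the 9 genes were counted in 4 lists by function. Over these lists, 13 of 49 genes tested rose and 19 fell, with a median log2 fold change of -0.05, where 26.6% of all genes tested rose and 29.9% fell. Under the study's thresholds 7 rose and 2 fell, where 7.90% and 10.4% of all genes did. Of the 15 stress and signalling targets tested, 8 rose and 4 fell (26.6% and 29.9% of all genes tested), with a median of 0.18. STC2, a secreted glycoprotein, was read at 8.87, 8.78 and 9.61 RPKM in shLuc and at 30.7, 28.7 and 31.2 RPKM in shWDR5, a 3.32-fold rise (edgeR, adjusted p = 4.22e-09). SESN2, a leucine sensor that restrains mTORC1, rose 2.11-fold, and HMOX1, which degrades haem, rose 2.07-fold. INHBE, an inhibin subunit, rose by 1.51 on the log2 scale on few reads, with 16, 13 and 16 in shLuc and 59, 45 and 44 in shWDR5. FGF21 had too few reads to be tested. EIF4EBP1, a repressor of cap-dependent translation, fell by 0.61.

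The amino acid and tRNA targets also moved both ways. Of 12 synthesis enzymes, 2 rose and 5 fell, with a median of 0.00, where 26.6% of all genes tested rose and 29.9% fell. PHGDH, the entry enzyme of serine synthesis, fell 2.01-fold from 66.1 ± 4.65 to 32.9 ± 2.58 RPKM (edgeR, adjusted p = 4.93e-07). MTHFD2, of mitochondrial folate metabolism, fell by 0.47, and PCK2, the mitochondrial phosphoenolpyruvate carboxykinase, fell by 0.57. CTH, which makes cysteine, fell by 0.53 at a level under 1 RPKM, a call lost with DESeq2 (adjusted p = 0.0911) and without shLuc replicate 1, shLuc replicate 3 or shWDR5 replicate 3. PYCR1, the last enzyme of proline synthesis, rose by 0.80. Of 9 amino acid transporters tested, 2 rose and 3 fell, against the same shares of all genes, with a median of -0.07. SLC7A11, the cystine importer that feeds glutathione synthesis, rose by 0.84, from 4.21, 5.98 and 5.11 RPKM to 7.73, 9.13 and 10.5 RPKM. SLC6A9, a glycine transporter, rose by 0.27, while SLC7A1 for cationic amino acids fell by 0.59 and SLC1A5 for glutamine fell by 0.42. SLC43A1, a carrier of large neutral amino acids, fell by 1.91 on few reads, with 37, 24 and 31 in shLuc and 4, 16 and 8 in shWDR5. Of 13 genes for tRNA charging and export, 1 rose and 7 fell, with a median of -0.23, against the same shares of all genes. AARS, EPRS, YARS and IARS fell by 0.56, 0.51, 0.44 and 0.39, and CARS rose by 0.39.

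**Figure D4:**
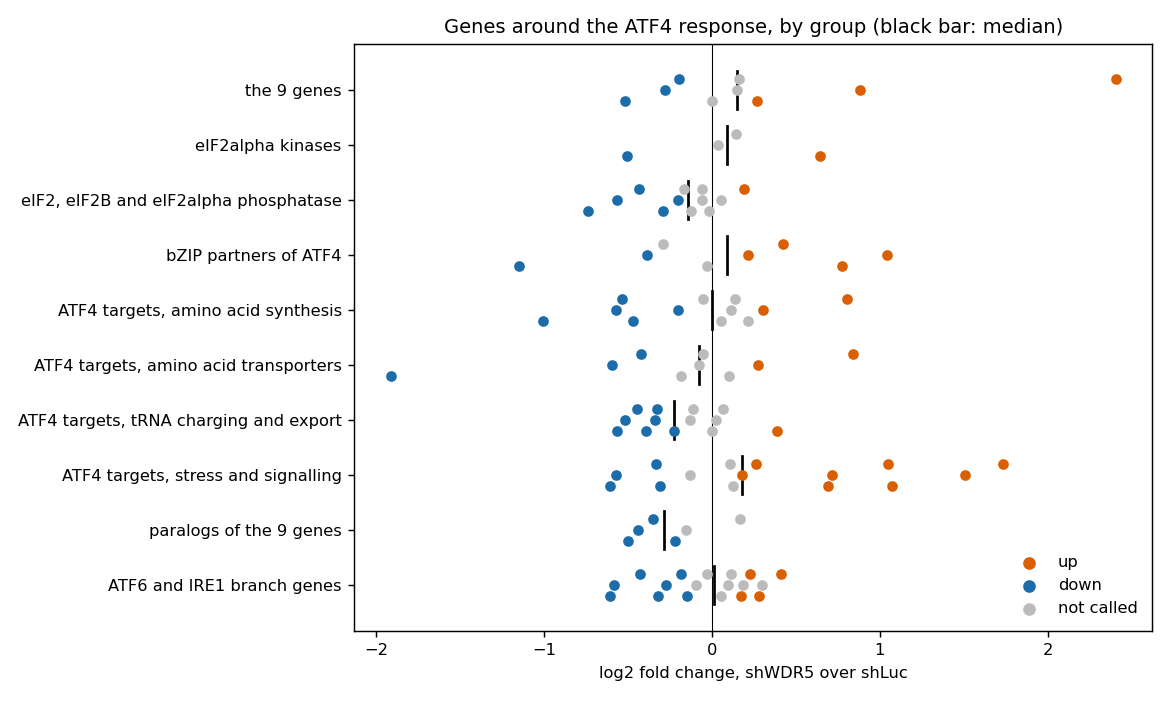
Log2 fold change (shWDR5 over shLuc) of each tested gene by group, with genes that rose in orange, genes that fell in blue, genes not called in grey and the group median as a black bar. The paralogs have the lowest median, -0.28, the tRNA group has its median at -0.23 and the stress and signalling targets at 0.18. Each group but the paralogs holds genes called in both directions.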

How the data were processed

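Poly-A RNA of MCF10DCIS.com cells (3 shLuc and 3 shWDR5 libraries, grouped by sample title) was sequenced on Illumina HiSeq 2000. Per the labels, reads were processed with TopHat2 2.1.0, featureCounts and edgeR 3.2.2 on hg19. The authors deposited raw read counts per gene with summed exon lengths, and the counting options are not given in the sources used here. A deposited table of the authors' own fold changes and p-values was not used. The total of 38218108 to 57640167 counts per library limits the precision of low genes. Within each group the libraries differed by more than sampling noise (chi-square over degrees of freedom of 7.15 or more), so none was counted as a duplicate.

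Counts were scaled by TMM, filtered with filterByExpr (16117 of 26334 genes kept, all 9 members among them) and tested with the edgeR 4.0.16 quasi-likelihood test in R 4.3.3, with Benjamini-Hochberg adjustment over all genes tested. Log2 fold changes are shWDR5 over shLuc. The SE was derived from the F statistic, and RPKM was computed from the counts, the exon length and the scaled library size. Alternatives were RLE or library size scaling, DESeq2 1.42.0, the exact test of edgeR, other filters, the study's thresholds, a replicate block and leaving out each library. All 9 members and, from each wider list, the called genes with the largest changes (the largest rise, the largest fall and up to 3 more) are named, as are WDR5 and the 3 genes most correlated with ATF4. Other genes named beside them (MARS, EIF2AK1, EIF2AK3, EIF2B2, ATF3, HSPA5, TRIB2, ASNSD1, DDIT4L and FGF21) were chosen after their values were seen. Members and lists were chosen with earlier results of these data known. Gene coordinates are those of the deposited table (hg19), and promoter sequences are from RefSeq (GRCh38.p14). A gene that this naming rule picks is not reported here.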

Additional observations from a re-analysis of the deposited data

How the results depend on the processing

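The calls of CHAC1, VLDLR, TRIB3, ATF4 and PPP1R15A held in every alternative scaling, test and filter, with the replicate block and without any single library. Their log2 fold changes ranged from 2.34 to 2.46, 0.82 to 0.91, -0.60 to -0.43, -0.34 to -0.25 and 0.21 to 0.32. Under the study's thresholds, by construction, ATF4 (-0.28), TRIB3 (-0.52), ASNS (-0.19) and PPP1R15A (0.27) were not called. These thresholds called 2957 genes, 1273 higher and 1684 lower, in place of 9103, 4292 and 4811. They called 2 of the 9 members, 0 of them lower. In the wider lists they called 10 higher and 5 lower genes, in place of 23 and 38. Tested in those lists were 4 kinases, 12 eIF2 genes, 8 bZIP list genes, 49 ATF4 targets, 6 paralogs and 18 ATF6 and IRE1 genes. Of all genes tested, the thresholds called 7.90% higher and 10.4% lower, in place of 26.6% and 29.9%. Taken alone, the counts are not a result about the members or the lists as groups. ASNS ranged from -0.21 to -0.16 and CEBPB from 0.0660 to 0.21 when single libraries were left out. DDIT4 changed sign with library size scaling (-0.0547), with no low-count filter (-0.0072) and when libraries were left out (-0.0397 to 0.0593), never near the threshold. For these changes the cause was not tested.

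With the replicate number as a block, 4909 genes were higher and 5521 lower, and CEBPB passed the threshold (0.15, adjusted p = 0.0371). Whether the numbers pair the samples was not settled by these values. Deviations of same-numbered libraries correlated at 0.372, 0.0358 and 0.116. Those of differently numbered libraries of the 2 groups correlated at -0.312 to 0.21. The value of 0.372 for number 1 was the highest, but not every library correlated best with its own number. Of 586 checks on 41 named genes of the wider lists and on WDR5, 549 kept the direction and the side of the threshold, 37 lost the call and 0 reversed. Most of the 37 were lost under the study's thresholds, by construction, since the fit was the same there. Of the 6 member calls, that of ASNS was the only one lost when a single library was left out.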

Other observations

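The other branches of the unfolded protein response work through ATF6 and IRE1. Of 18 genes of these branches, 4 rose and 7 fell, with a median log2 fold change of 0.01, against 26.6% and 29.9% of all genes. PDIA6, a disulfide isomerase, rose by 0.41 on the log2 scale, while MANF, a secreted chaperone-associated factor, fell by 0.61 and EDEM1 and SEL1L, of protein degradation from the endoplasmic reticulum, fell by 0.58 and 0.43. DNAJB11, a co-chaperone, fell by 0.32. The SEL1L call was lost without shLuc replicate 3 (edgeR, adjusted p = 0.0619). HSPA5 (BiP), the leading chaperone of this response, was not called, with 336 ± 5.87 RPKM in shLuc and 316 ± 8.30 RPKM in shWDR5 (SD, n = 3).

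Of the 6 paralogs of the members that were tested, 0 rose and 4 fell, with a median log2 fold change of -0.28. Of all genes tested, 26.6% rose and 29.9% fell. Among these paralogs, TRIB1 fell by 0.22 on the log2 scale. TRIB2 and ASNSD1 were not called, with log2 fold changes of -0.15 and 0.17, and DDIT4L was listed at 0 reads in all 6 libraries. The genes whose log2 CPM most resembled that of ATF4 over the 6 libraries were RNF135, TTC31 and MAP3K4, with Pearson correlations of 0.9997, 0.9991 and 0.9990. This is a description of 6 points in 2 groups, and 3264 of 16116 genes reached a correlation of 0.9 or more.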
